A study of Mus musculus with 24 samples.

Results

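H19, Igf2 and 7 growth genes linked to them by imprinting or by binding of their RNA were described in 24 mouse gut RNA sequencing libraries. The 9 genes are H19, Igf2, Igf2bp1, Igf2bp2, Igf2bp3, Cdkn1c, Peg3, Plagl1 and Grb10, of 39179 genes in the count files. They were matched by Ensembl identifier to mouse symbols and were chosen from measured values, because H19 was far higher in mutant cecum than in WT cecum. All 9 passed the filter on low counts. Comparisons of mutant cecum with WT cecum are therefore given for them as levels and fold changes with no p-value.

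The libraries fall into 8 groups of 3. The Cdx2-/-;Apc+/- cecum and the Cdx2-/-;Apc+/- ileum carried floxed Cdx2 alleles (Cdx2f/f), the AhCreERT transgene and 1 mutant Apc allele (ApcD14/+). The Cdx2-/- cecum carried Cdx2f/f and AhCreERT and was deposited as 2 sets of 3 libraries, here set 1 (replicates 1 to 3) and set 2 (replicates 4 to 6). All of these mice received tamoxifen and bnaphthoflavone, which activate a CreERT driven by the CYP1A1 (Ah) promoter, so recombination depended on the cells in which that promoter was active. Cdx2+/- mice were heterozygotes sampled in the cecum with no treatment. Apc+/- mice were sampled in the ileum, also untreated, and the labels conflict for replicates 1 and 3, whose genotype entry names floxed Cdx2 and Cre while their description names a Cdx2 allele that is not floxed. WT stomach and WT cecum were untreated. Treatment and Cdx2 deletion cannot be told apart in the conditional mutants. Ages are not given. The labels do not say whether each library came from its own animal, so a p-value here reflects only the scatter of these libraries, which may be technical.

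Cdx2 is a homeobox transcription factor that specifies intestinal epithelium, and Apc restrains Wnt signalling. H19 and Igf2 are neighbouring imprinted genes that share enhancers: H19, a long non-coding RNA, is transcribed from the maternal copy and Igf2, a fetal growth factor, from the paternal copy. Both are abundant in the fetus and are shut down in most tissues after birth. Igf2bp1, Igf2bp2 and Igf2bp3 encode RNA-binding proteins that bind Igf2 messenger RNA, among many others. Cdkn1c, Grb10, Peg3 and Plagl1 are imprinted genes that are highly expressed in the embryo.

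Exon sequence of H19 contains the precursor of the microRNA miR-675. Its mature forms are shown because they are the known small RNA product of the transcript whose level defines this gene set. They lie on the minus strand of chromosome 7 (GRCm38.p6, RefSeq), and capitals mark the seed, bases 2 to 8.
miR-675-5p, chr7:142577112-142577133: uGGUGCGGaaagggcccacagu
miR-675-3p, chr7:142577078-142577099: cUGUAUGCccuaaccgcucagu
The 2 arms have different seeds. Mir675 was listed with 0 reads in all libraries, which were made with an mRNA kit, and reads that fell in more than 1 gene were assigned to none.

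Cdx2 binds AT-rich sites with the core TTTAT, read on the other strand as ATAAA. Promoters in the RefSeq table (GRCm38.p6) were matched for 6 of the 9 genes, Igf2, Igf2bp2, Igf2bp3, Peg3, Plagl1 and Grb10, with 10 starts in all, 4 of them for Igf2 and 2 for Grb10. Within the 250 bases before a start, 2 of these 10 promoters held the core on either strand, against 37.3% of 32851 promoters in the table. Both belong to Igf2 and are shown on the minus strand with the match in capitals.
Igf2, chr7:142661272-142661521: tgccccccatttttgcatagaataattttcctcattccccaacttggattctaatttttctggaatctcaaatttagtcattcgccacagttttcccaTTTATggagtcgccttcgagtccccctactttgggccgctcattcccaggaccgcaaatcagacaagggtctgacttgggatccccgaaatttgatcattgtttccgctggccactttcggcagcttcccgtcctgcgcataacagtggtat
Igf2, chr7:142657497-142657746: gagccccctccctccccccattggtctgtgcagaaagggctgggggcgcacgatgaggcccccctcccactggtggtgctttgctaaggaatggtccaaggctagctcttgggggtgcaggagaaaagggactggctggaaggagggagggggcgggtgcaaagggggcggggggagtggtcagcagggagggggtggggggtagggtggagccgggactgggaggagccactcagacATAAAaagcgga
The match in the first lies at -152 and that in the second at -12 from the start. None of the 10 held TATAAA on either strand, which 12.4% of all promoters did. Their GC content ran from 47.6 to 81.2% (median of all promoters 52.4%). A match is a run of letters and not evidence of binding.

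The libraries held 36567685 to 87975179 reads assigned to genes. Cdx2 had 151, 122 and 137 CPM (counts scaled to library size by the TMM method) in the Cdx2-/-;Apc+/- cecum, 130 to 349 CPM in the 6 Cdx2-/- cecum libraries, 115 to 118 CPM in the Cdx2+/- cecum and 408 to 663 CPM in WT cecum. The Cdx2+/- libraries therefore lay below all Cdx2-/- libraries, and a whole-gene count does not separate intact from deleted transcripts. In the ileum, the library labelled Cdx2-/-;Apc+/- replicate 2 had 178 CPM of Cdx2, above all 3 Apc+/- ileum libraries (63.3 to 112 CPM), and an ileal marker sum of 16062 CPM, against 359 and 885 CPM in its 2 partners and 2679 to 5141 CPM in Apc+/- ileum. Cecum and colon markers summed to 935 to 3030 CPM in the Cdx2-/-;Apc+/- cecum, 804 to 3954 CPM in the Cdx2-/- cecum, 7097 to 7820 CPM in the Cdx2+/- cecum and 24065 to 41409 CPM in WT cecum. Set 1 differed from every other group in Xist, with 666 to 816 CPM against at most 2.19 CPM, and in Ddx3y, with at most 0.25 CPM against at least 42.3 CPM, so sex goes with set. Set 1 replicates 2 and 3 were far closer to each other (7.03 per degree of freedom by chi-square) than any other pair of a group (53.0 to 507).

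H19 (ENSMUSG00000000031; GRCm38 chromosome 7, 142575529 to 142578143 on the minus strand) was higher in all 12 mutant cecum libraries than in any WT cecum library, on a very low base. It had 1.36, 0.786 and 0.654 CPM in the Cdx2-/-;Apc+/- cecum. Set 2 of the Cdx2-/- cecum gave 1.31, 1.15 and 3.13 CPM and its set 1 gave 0.968, 5.46 and 5.33 CPM. The level was 0.239, 0.174 and 0.183 CPM in the Cdx2+/- cecum. In WT cecum it had 0.106, 0.0209 and 0.0297 CPM, which are 4, 1 and 2 reads. The Cdx2-/- libraries lay above the Cdx2+/- libraries, and these above WT, with no overlap between the 3 genotypes. Set 1 replicate 1 was the lowest of the 6 Cdx2-/- libraries.

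Because WT cecum held only 7 H19 reads in all, ratios of pooled reads are given with exact 95% intervals that cover counting error only. The intervals leave out the scatter between libraries. Mutant and WT cecum also served to choose H19, so the intervals are descriptions and test nothing. H19 was 20.4 times the WT cecum level in the Cdx2-/-;Apc+/- cecum (interval 9.62 to 51.7). The ratio was 61.5 in the Cdx2-/- cecum (29.8 to 153), with 39.6 in set 2 and 76.4 in set 1, and 4.28 in the Cdx2+/- cecum (1.85 to 11.5). The fitted log2 changes were 4.23 ± 1.12, 5.76 ± 1.09 and 2.01 ± 1.21 (± SE) in the same order of groups. Without WT cecum replicate 1, which held 4 of the 7 reads, these became 5.05, 6.58 and 2.83.

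The highest H19 levels of the series were in the ileum, not in the mutant cecum. The Cdx2-/-;Apc+/- ileum had 5.82, 18.6 and 9.75 CPM, while the Apc+/- ileum held 2.59, 24.2 and 1.99 CPM. WT stomach had 0.355, 1.85 and 1.13 CPM. Neighbouring groups in the order of mean levels overlapped from the Cdx2-/-;Apc+/- ileum (11.4 ± 6.53 CPM, SD, n = 3) down to the Cdx2-/-;Apc+/- cecum (0.934 ± 0.376 CPM). The Cdx2+/- cecum (0.199 ± 0.0352 CPM) lay apart below these, and WT cecum (0.0522 ± 0.0468 CPM) apart below that.

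**Figure D1:**
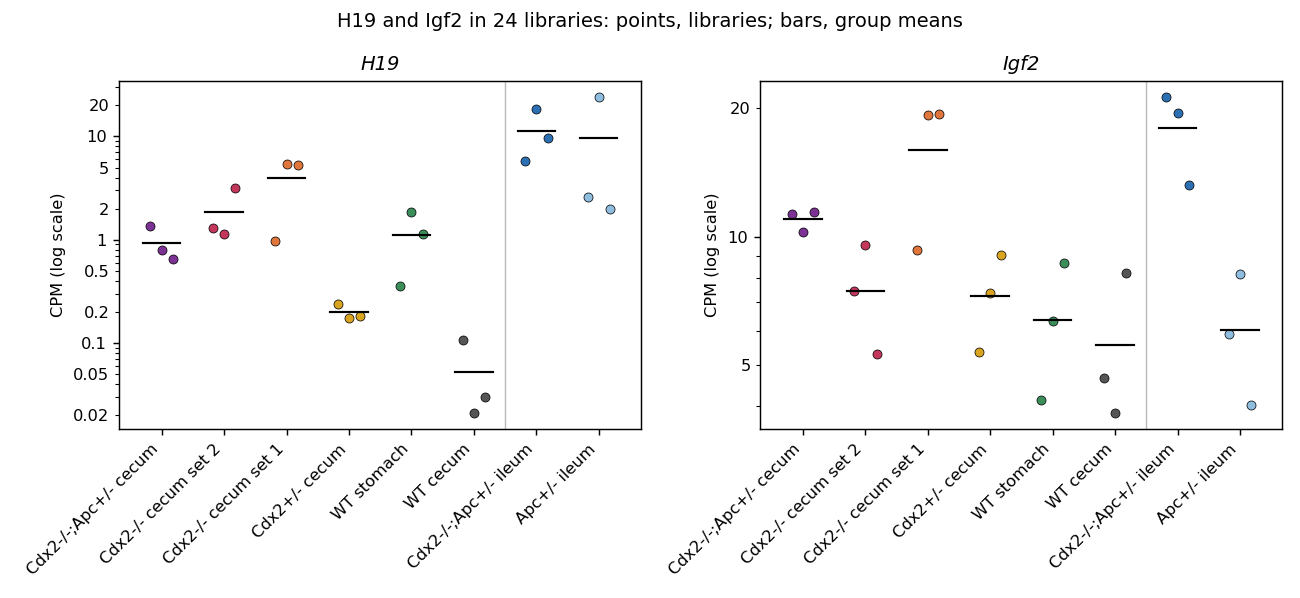
H19 (left) and Igf2 (right) in CPM on a log scale, with 1 point per library and a bar at each group mean; a grey line sets the ileum groups apart. The 3 WT cecum libraries have at most 0.106 CPM of H19 and every other library at least 0.174 CPM, while the Igf2 ranges of most groups overlap.

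Igf2 (ENSMUSG00000048583; chromosome 7, 142650766 to 142666816 on the minus strand) did not share the size of the H19 difference. It had 11.3, 10.2 and 11.4 CPM in the Cdx2-/-;Apc+/- cecum. Set 2 of the Cdx2-/- cecum gave 7.47, 9.53 and 5.29 CPM and its set 1 gave 9.31, 19.3 and 19.4 CPM. The Cdx2+/- cecum held 5.34, 7.38 and 9.07 CPM, and WT cecum had 4.66, 3.85 and 8.22 CPM. All Cdx2-/-;Apc+/- libraries lay above WT, while those of the Cdx2-/- and Cdx2+/- cecum overlapped WT. The log2 changes against WT cecum were 0.97 ± 0.36, 0.96 ± 0.32 and 0.38 ± 0.36. Set 1 alone gave 1.52 and set 2 alone 0.41, so the Cdx2-/- value depends on the set. Igf2 shares 98 exon bases with its antisense gene Igf2os, and the strand setting of the counting is not given in the sources used here.

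Of the 3 Igf2 RNA-binding proteins, 2 ran opposite to H19. Igf2bp1 (ENSMUSG00000013415; chromosome 11, 95957163 to 96005940 on the minus strand) had 1.66, 0.555 and 0.552 CPM in the Cdx2-/-;Apc+/- cecum. Among Cdx2-/- libraries, set 2 gave 0.23, 0.245 and 0.645 CPM and set 1 gave 2.84, 0.253 and 0.269 CPM. The Cdx2+/- cecum held 3.34, 3.13 and 3.08 CPM, and WT cecum 15.5, 19.2 and 9.76 CPM. Every mutant library was thus below WT, and the Cdx2+/- libraries were above those of both conditional mutants. The log2 changes were -4.00 ± 0.91, -4.51 ± 0.70 and -2.22 ± 0.83 in the 3 mutant cecum groups. Without Cdx2-/-;Apc+/- replicate 1 the first became -4.76, and without set 1 replicate 1 the second became -5.56.

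Igf2bp2 (ENSMUSG00000033581; chromosome 16, 22059009 to 22163299 on the minus strand) was the most abundant of the 9 genes in WT cecum and showed the same order of genotypes. It had 20.5, 25.6 and 28.3 CPM in the Cdx2-/-;Apc+/- cecum. Among Cdx2-/- libraries, set 2 gave 18, 25.3 and 35.7 CPM and set 1 gave 22.2, 13.7 and 13.5 CPM. The Cdx2+/- cecum held 51.2, 62.2 and 55.7 CPM, against 158, 155 and 112 CPM in WT cecum. The 3 genotypes did not overlap. The log2 changes were -2.51 ± 0.24, -2.76 ± 0.19 and -1.33 ± 0.23. Igf2bp3 (ENSMUSG00000029814; chromosome 6, 49085223 to 49214957 on the minus strand) stayed between 0.118 and 0.654 CPM in all 24 libraries, its log2 changes against WT cecum ran from -0.68 ± 0.48 to 0.49 ± 0.46, and it shares 1529 exon bases with Malsu1 on the other strand.

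The imprinted growth genes at other loci differed from WT cecum in different directions. Plagl1 (ENSMUSG00000019817; chromosome 10, 13060504 to 13131694 on the plus strand), a zinc finger transcription factor of an imprinted gene network, had 28, 21.8 and 26.2 CPM in the Cdx2-/-;Apc+/- cecum. Set 2 of the Cdx2-/- cecum gave 27, 28.5 and 27.5 CPM and its set 1 gave 16.3, 14.2 and 14.6 CPM. The level was 13.2, 11 and 11.1 CPM in the Cdx2+/- cecum. WT cecum had 1.03, 1.00 and 3.63 CPM, below every mutant library. The log2 changes were 3.72 ± 0.37, 3.41 ± 0.35 and 2.61 ± 0.36, and without WT cecum replicate 3 they were 4.63, 4.32 and 3.53.

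Grb10 (ENSMUSG00000020176; chromosome 11, 11930508 to 12038683 on the minus strand), an adaptor that restrains insulin and IGF receptor signalling, lay above WT in both conditional mutants and not in the Cdx2+/- cecum. It had 34.2, 29.1 and 26.9 CPM in the Cdx2-/-;Apc+/- cecum. Among Cdx2-/- libraries, set 2 gave 26.2, 27.7 and 46.5 CPM and set 1 gave 23.7, 35.9 and 36.6 CPM. The Cdx2+/- cecum held 4.26, 4.72 and 5.75 CPM and overlapped WT cecum at 5.40, 4.35 and 9.76 CPM. The log2 changes were 2.20 ± 0.35, 2.33 ± 0.33 and -0.41 ± 0.34.

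Cdkn1c (ENSMUSG00000037664; chromosome 7, 143458339 to 143461050 on the minus strand), a cyclin-dependent kinase inhibitor that restrains growth, had 3.36, 2.34 and 9.66 CPM in the Cdx2-/-;Apc+/- cecum. Set 2 of the Cdx2-/- cecum gave 1.98, 1.78 and 2.47 CPM and its set 1 gave 5.51, 2.03 and 2.07 CPM. The level was 6.86, 5.18 and 7.18 CPM in the Cdx2+/- cecum, and 8.48, 7.07 and 7.38 CPM in WT cecum. All Cdx2-/- libraries lay below WT, and the log2 changes were -0.58 ± 0.42, -1.56 ± 0.35 and -0.25 ± 0.42. Without Cdx2-/-;Apc+/- replicate 3 the first became -1.42. Peg3 (ENSMUSG00000002265; chromosome 7, 6703892 to 6730431 on the minus strand), a zinc finger protein gene expressed from the paternal copy, had 32.8, 37.2 and 33.9 CPM in the Cdx2-/-;Apc+/- cecum, above 8.05, 9.18 and 19 CPM in WT cecum. It had 11.8 to 31.2 CPM in the Cdx2-/- cecum and 5.49 to 8.35 CPM in the Cdx2+/- cecum, and both overlapped WT.

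**Figure D2:**
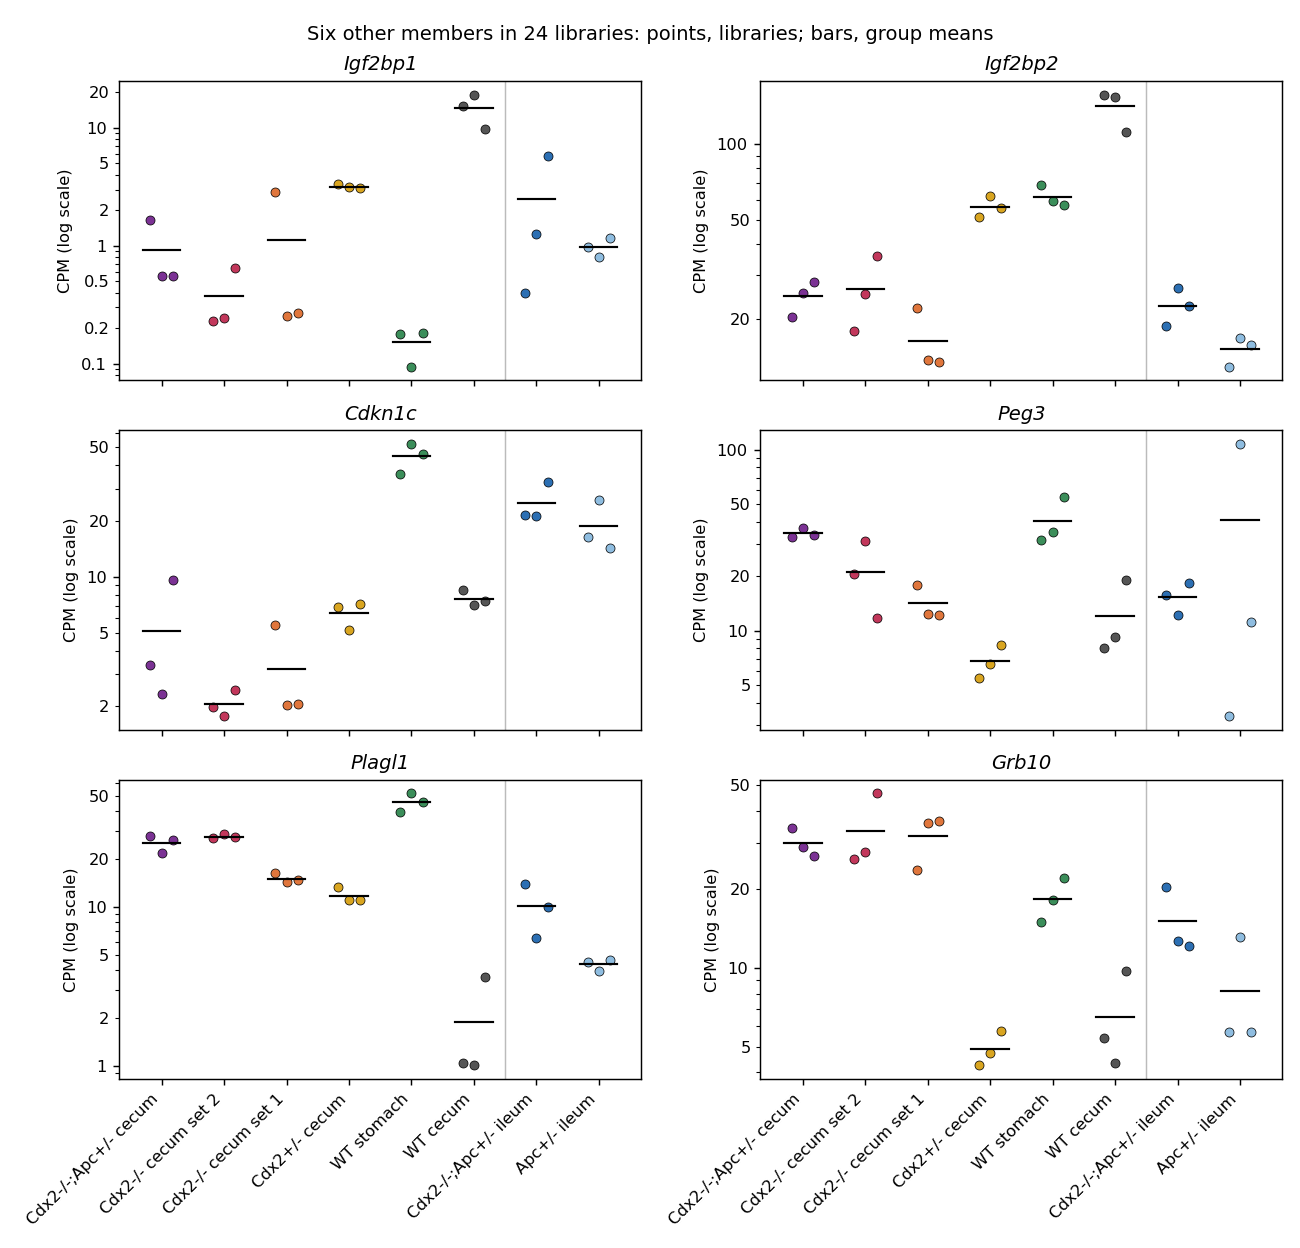
CPM on a log scale of Igf2bp1, Igf2bp2, Cdkn1c, Peg3, Plagl1 and Grb10, with 1 point per library and a bar at each group mean. The WT cecum libraries are the highest for Igf2bp1 and Igf2bp2 and the lowest for Plagl1, and 1 Apc+/- ileum library stands at 107 CPM for Peg3.

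By edgeR's quasi-likelihood test with a Benjamini-Hochberg adjusted p under 0.05 over 20502 genes, 4 of the 9 genes were called higher and 2 lower in the Cdx2-/-;Apc+/- cecum against WT cecum, where 52.8% of all genes were called. In the Cdx2-/- cecum 4 were called higher and 3 lower (53.1% of all genes), and in the Cdx2+/- cecum 1 higher and 2 lower (34.4%). These contrasts chose the genes, and nothing is read from the counts. The 3 comparisons share the WT cecum libraries.

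Per kilobase of exon, the order of the genes differed between the mutant and WT cecum. In the Cdx2-/- cecum (n = 6), Grb10 led with a mean level of 3.61 CPM per kb, followed by Igf2bp2 with 2.89, Plagl1 with 2.73, Igf2 with 2.05, Peg3 with 1.33, Cdkn1c with 1.29 and H19 with 1.17 CPM per kb. In WT cecum (n = 3), Igf2bp2 led with 19.1 CPM per kb, followed by Cdkn1c with 3.75 and Igf2bp1 with 1.53, and H19 was last with 0.0212 CPM per kb. Igf2 had 0.974, Grb10 0.716 and Plagl1 0.241 CPM per kb there. All of these are tissue levels, in which fewer cells of a type and less RNA per cell cannot be told apart.

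**Figure D3:**
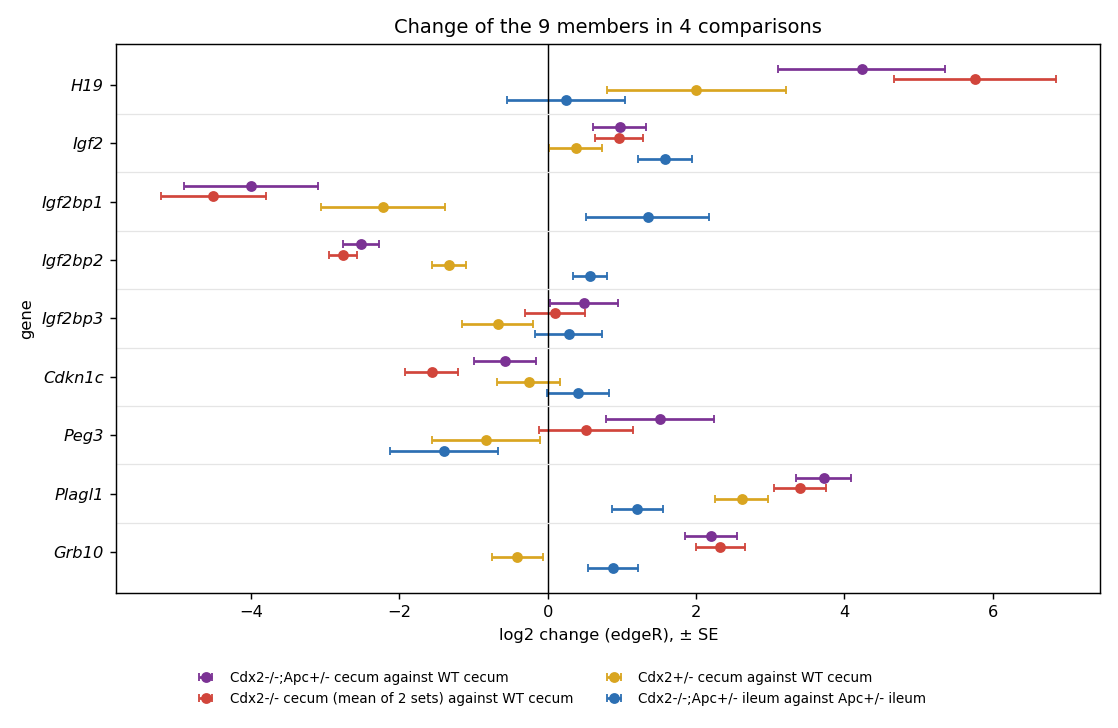
Log2 change with its SE for the 9 genes in 3 comparisons of mutant cecum with WT cecum and in the Cdx2-/-;Apc+/- ileum against Apc+/- ileum. Igf2bp1 and Igf2bp2 lie left of 0 and Plagl1 right of 0 in all 3 cecum comparisons, and the ileum value of H19 lies at 0.25 ± 0.79.

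The Cdx2-/- cecum was compared with the Cdx2+/- cecum as loss of both copies of Cdx2 against loss of 1. The Cdx2-/- mice were conditional and treated and the Cdx2+/- mice were neither, so gene dose and treatment cannot be told apart, and Cdx2 reads were not lower in the Cdx2-/- cecum. Of the 8 genes other than H19, 2 were called higher and 3 lower, where 40.3% of all genes were called. Grb10 rose with a log2 change of 2.74 ± 0.34 (adjusted p = 2e-05, edgeR) and was higher in 6 of 6 libraries than in any Cdx2+/- library. Igf2bp2 fell by 1.44 ± 0.19 on the log2 scale (adjusted p = 3.58e-05, edgeR) and Igf2bp1 by 2.29 ± 0.69 (adjusted p = 0.0133, edgeR), both lower in 6 of 6 libraries. The 6 include the closely alike replicates 2 and 3 of set 1, and the share of all genes that separate in this way was not counted. Cdkn1c fell by 1.31 ± 0.36 (adjusted p = 0.00751, edgeR), with set 1 replicate 1 inside the Cdx2+/- range.

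With set 1 alone neither Cdkn1c (-0.99, adjusted p = 0.0904) nor Igf2bp1 (-1.48, adjusted p = 0.188) was called by edgeR, and Igf2 was (1.14, adjusted p = 0.0253). Without set 1 replicate 1 Igf2bp1 stood at -3.34. Plagl1 differed by 0.79 ± 0.30 (adjusted p = 0.0407, edgeR), a call lost when any 1 of the 9 libraries compared was left out (log2 0.75 to 0.89). H19 differed by 3.76 ± 0.90 on the log2 scale, described without a p because the Cdx2-/- libraries also served to choose it. Markers of other cell types moved with this comparison. Of 12 smooth muscle markers, 12 were called higher in the Cdx2-/- cecum, with a summed level of 1776 to 3819 CPM against 300 to 841 CPM in the Cdx2+/- cecum, and WT cecum had 1720 to 5094 CPM. Of 13 enteric neuron and glia markers 11 were called higher, as were 12 of 12 fibroblast markers (1836 to 7931 against 805 to 1169 CPM), and 6 of 8 epithelial markers were called lower. The Cdx2+/- libraries also stood apart from WT cecum, with 11 of 12 smooth muscle and 9 of 13 neuron and glia markers lower, which touches the members' Cdx2+/- values against WT cecum as well. No smooth muscle or fibroblast marker was at 0 in these groups. The part of these markers in the members' differences was not tested.

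The mutant Apc allele was examined by comparing the Cdx2-/-;Apc+/- cecum with the Cdx2-/- cecum. edgeR called 0 of the 8 genes other than H19, where 8.43% of all genes were called, with 1 gene at an unadjusted p under 0.05 and 0 called by DESeq2. The share of all genes depends on the set: 4465 genes were called against set 1 alone and 2 against set 2 alone. Set 1 also differs from the Cdx2-/-;Apc+/- cecum in the sex markers Xist and Ddx3y. The Apc allele and sex therefore cannot be told apart against set 1. H19 differed by -1.53 ± 0.76 on the log2 scale, given as a description because both groups served to choose it. The highest change was 1.00 ± 0.60 for Peg3 (adjusted p = 0.317, edgeR). Cdkn1c had the smallest p (0.99 ± 0.36, adjusted p = 0.0913, edgeR), and it was called without set 1 replicate 1 (1.31, adjusted p = 0.0244). That fit leaves set 1 with only its closely alike replicates 2 and 3. Peg3 was higher in 3 of 3 Cdx2-/-;Apc+/- libraries than in any Cdx2-/- library. Of 12 fibroblast markers 1 was called higher, and of 18 proliferation markers 8 were called lower. These marker calls use the mean of both sets and were not examined by set.

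Set 2 and set 1 carry the same genotype and treatment labels. edgeR called 0 of the 8 genes other than H19 between them, where 10.5% of all genes were called, with 3 at an unadjusted p under 0.05 and 3 called by DESeq2. Igf2 had a log2 difference of -1.11 ± 0.36 (adjusted p = 0.0536, edgeR), Igf2bp2 one of 0.68 (adjusted p = 0.0641, edgeR) and Plagl1 one of 0.88 (adjusted p = 0.0993, edgeR), with Plagl1 higher in 3 of 3 set 2 libraries. Without set 1 replicate 1, Igf2 (-1.38, adjusted p = 0.0305) and Igf2bp2 (0.95, adjusted p = 0.0251) were called by edgeR. That fit leaves set 1 with only its closely alike replicates 2 and 3, so its calls may rest on too small a spread. Igf2bp2 was also called by edgeR without set 2 replicate 4 (0.89, adjusted p = 0.0295). The sets also differ in the sex markers, so set and sex cannot be told apart.

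The ileum asks whether the same genes differ in another segment. Igf2 had 21.3, 19.6 and 13.2 CPM in the Cdx2-/-;Apc+/- ileum, while the Apc+/- ileum held 5.89, 8.15 and 4.02 CPM. The groups did not overlap, and the log2 change was 1.58 ± 0.36 (adjusted p = 0.057, edgeR). For Plagl1 the Cdx2-/-;Apc+/- ileum gave 13.9, 6.39 and 9.97 CPM and Apc+/- ileum 4.51, 3.94 and 4.63 CPM, also without overlap (1.21 ± 0.34, adjusted p = 0.137, edgeR). Igf2bp2 gave 18.9, 26.7 and 22.5 CPM in the Cdx2-/-;Apc+/- ileum and 13, 16.8 and 15.8 CPM in Apc+/- ileum, again without overlap (adjusted p = 0.36, edgeR). Only these 3 of the 9 genes had no overlap. The share of all genes whose ileum libraries do not overlap was not counted, so nothing is read from the separation.

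edgeR called 0 of the 9 genes in the ileum, where 0.444% of all genes were called, with 4 at an unadjusted p under 0.05. DESeq2 called 2, Igf2 (adjusted p = 0.00251) and Plagl1 (adjusted p = 0.0297). Without the Cdx2-/-;Apc+/- ileum replicate 2, whose Cdx2 goes against its label, edgeR called both, Igf2 with 1.52 (adjusted p = 0.0469) and Plagl1 with 1.45 (adjusted p = 0.0296). Without replicate 2 of both groups, a choice made after seeing the data, edgeR called Igf2 (1.74, adjusted p = 0.04) and Grb10 (1.46, adjusted p = 0.0393). H19 differed by 0.25 ± 0.79 with all libraries (adjusted p = 0.98, edgeR) and by 1.72 without those 2 (adjusted p = 0.211, edgeR). Peg3 differed by -1.40 with Apc+/- replicate 2 at 107 CPM, against 3.39 and 11.2 CPM in its partners, and by 1.18 without those 2 libraries (adjusted p = 0.204, edgeR).

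Within Cdx2-/-;Apc+/- mice, the cecum was compared with the ileum. H19 differed by -3.61 ± 0.89 on the log2 scale, with 3 of 3 cecum libraries below the ileum, described without a p because the cecum libraries served to choose it. Cdkn1c fell by 2.29 ± 0.44 (adjusted p = 0.00224, edgeR), with 3.36, 2.34 and 9.66 CPM in the cecum against 21.7, 21.3 and 32.4 CPM in the ileum. Plagl1 was higher in 3 of 3 (1.33 ± 0.34, adjusted p = 0.0124, edgeR), a call lost without ileum replicate 2 (1.08, adjusted p = 0.0574). Without cecum replicate 3 Cdkn1c stood at -3.14. Of the 8 genes other than H19, 1 rose and 1 fell, where 16.2% of all genes were called. With the 6 compared libraries fitted alone, edgeR called neither Cdkn1c (adjusted p = 0.0828) nor Plagl1 (adjusted p = 0.0755).

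The difference between the cecal change (against WT cecum) and the ileal change (against Apc+/- ileum) contains a contrast that chose the genes, and its controls differ in Apc. edgeR called it for 4 of the 9 genes upward and 2 downward, where 34.7% of all genes were called, and nothing is read from that count.

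WT stomach gives the levels of a tissue that expresses almost no Cdx2 (at most 1.52 CPM, against at least 408 CPM in WT cecum). Plagl1 had 39.2, 51.7 and 45.5 CPM in WT stomach, a log2 change of 4.56 ± 0.39 against WT cecum (adjusted p = 3.13e-08, edgeR). Cdkn1c rose by 2.55 ± 0.44 (adjusted p = 0.000111, edgeR), with 35.8, 52.2 and 46.2 CPM in stomach. Grb10 rose by 1.5 ± 0.35 (adjusted p = 0.00167, edgeR). Igf2bp1 fell by 6.59 ± 1.05 on the log2 scale (adjusted p = 4.82e-05, edgeR), to 0.177, 0.0946 and 0.182 CPM, and Igf2bp2 by 1.2 ± 0.23 (adjusted p = 0.000308, edgeR). H19 was at a log2 change of 4.49 ± 1.12, described without a p since WT cecum served to choose it, and Igf2 had 4.12 to 8.64 CPM in stomach and overlapped WT cecum. Without WT cecum replicate 3 Plagl1 stood at 5.48, and without WT cecum replicate 1 H19 stood at 5.31.

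Of the 8 genes other than H19, 3 were called higher and 2 lower in stomach, where 43.7% of all genes were called. This comparison and those of the mutant cecum share the WT cecum libraries. Side by side, the log2 changes against WT cecum in the Cdx2-/- cecum and in WT stomach were 3.41 and 4.56 for Plagl1, -4.51 and -6.59 for Igf2bp1, 2.33 and 1.5 for Grb10, and -1.56 and 2.55 for Cdkn1c. Gastric epithelial markers summed to 3446 to 27989 CPM in the Cdx2-/- cecum and 35340 to 37121 CPM in the Cdx2+/- cecum, against 208785 to 275259 CPM in WT stomach and 11.4 to 1122 CPM in WT cecum.

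The other genes of the IGF pathway, which bind, transport or transmit IGF signals, were called higher more often than lower in each mutant cecum group and in WT stomach, all against WT cecum. Of 21 such genes tested, 14 rose and 2 fell in the Cdx2-/-;Apc+/- cecum against WT cecum, with a median log2 change of 1.88 against 0.07 over all genes, of which 52.8% were called. In the Cdx2-/- cecum 13 rose and 2 fell (median 1.38, against 0.04, with 53.1% of all genes called). In the Cdx2+/- cecum 7 rose, 1 fell and 13 were not called (median 0.75, against -0.05, with 34.4% called). In WT stomach 11 rose and 1 fell (median 0.82, against 0.04, with 43.7% called). These comparisons share the WT cecum libraries, in which the list summed to 644 to 753 CPM. Its sum was 1990 to 2271 CPM in Apc+/- ileum, so a level above WT cecum is not particular to the mutant cecum. Stc1, a stanniocalcin that inhibits the IGF-binding-protein protease pappalysin, rose by 4.50 ± 0.44, 4.04 ± 0.41 and 4.07 ± 0.43 in the 3 mutant cecum groups. The IGF-binding protein Igfbp4, a pappalysin substrate, rose by 2.45 ± 0.29, 2.77 ± 0.28 and 1.69 ± 0.28.

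Igfbp3 rose by 2.73 ± 0.33 in the Cdx2-/-;Apc+/- cecum, and by 1.25 ± 0.26 there against the Cdx2-/- cecum (adjusted p = 0.00868, edgeR). Igfbp7 rose by 1.91 ± 0.22 in the Cdx2-/- cecum, and Igfbp5 by 2.64 ± 0.47 in the Cdx2+/- cecum. The adaptor Irs4 was lower in the Cdx2-/- than in the Cdx2+/- cecum (-5.95 ± 0.69, adjusted p = 1.22e-05, edgeR), and the growth factor Igf1 was higher (2.16 ± 0.46, adjusted p = 0.00144, edgeR). In the ileum comparison edgeR called 0 of the 21, where 0.444% of all genes were called, and nothing is read from that count. Fibroblast markers moved with this list in the conditional mutants: 10 of 12 rose in the Cdx2-/-;Apc+/- cecum (3793 to 6073 CPM summed) and 8 of 12 in the Cdx2-/- cecum (1836 to 7931 CPM), against 549 to 1638 CPM in WT cecum, and none was at 0. In the Cdx2+/- cecum 1 of 12 rose and 2 fell (805 to 1169 CPM). Leukocyte markers rose for 6 of 12 in the Cdx2-/-;Apc+/- cecum (331 to 620 CPM) and for 8 of 12, with 1 lower, in the Cdx2-/- cecum (252 to 684 CPM), against 101 to 284 CPM in WT cecum, and at most 1 was at 0 in a library. Epithelial markers fell for 5 of 8 and rose for 1 in both. The part of these markers in the list's change was not tested.

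Imprinted genes other than the 9 were called in both directions. Of 42 tested, 9 rose and 8 fell in the Cdx2-/-;Apc+/- cecum, 10 rose and 11 fell in the Cdx2-/- cecum, and 7 rose and 12 fell in the Cdx2+/- cecum, each against WT cecum. Over all genes 52.8, 53.1 and 34.4% were called there, and nothing particular to imprinted genes is read from the counts. The potassium channel Kcnq1 rose by 2.06 ± 0.24 and 1.99 ± 0.22 in the Cdx2-/-;Apc+/- and Cdx2-/- cecum, and the transporter Slc22a18, from the same imprinted cluster as Kcnq1 and Cdkn1c, had log2 changes of -2.68 ± 0.29 and -1.94 ± 0.22 there. Zrsr1, an imprinted retrogene, had -1.31 ± 0.19, -1.48 ± 0.16 and -1.09 ± 0.19 in the 3 mutant groups. Phlda2, a growth-restraining gene of that cluster, was lower in the Cdx2-/- than in the Cdx2+/- cecum (-2.12 ± 0.36, adjusted p = 0.000279, edgeR), and lower in set 2 than in set 1 (-2.38 ± 0.46, adjusted p = 0.0041, edgeR).

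Among 11 tested genes of the Lin28/let-7 axis, which controls fetal growth through let-7 microRNAs and includes regulators of the Igf2bp genes, 3 rose and 5 fell in the Cdx2-/-;Apc+/- cecum, 2 rose and 5 fell in the Cdx2-/- cecum, and 2 rose and 1 fell in the Cdx2+/- cecum. Of all genes 52.8, 53.1 and 34.4% were called. Hmga2, a let-7 target and chromatin protein that promotes Igf2bp2 expression, fell by 1.71 ± 0.47, 2.07 ± 0.38 and 3.15 ± 0.50 on the log2 scale in the 3 groups. Hmga1 fell by 1.64 ± 0.34 in the Cdx2-/-;Apc+/- cecum and by 1.05 ± 0.28 in the Cdx2-/- cecum. Of 14 tested genes of the H19/Igf2 neighbourhood and of imprint maintenance, 7 rose and 2 fell in the Cdx2-/-;Apc+/- cecum, 9 rose and 3 fell in the Cdx2-/- cecum, and 6 rose and 2 fell in the Cdx2+/- cecum, against the same shares of all genes (52.8, 53.1 and 34.4%). Zfp57, a zinc finger protein that keeps imprints, rose by 1.73 ± 0.25 and 1.68 ± 0.23 in the Cdx2-/-;Apc+/- and Cdx2-/- cecum, and its partner Trim28 by 0.60 ± 0.11 in the Cdx2-/- cecum and by 0.49 ± 0.12 in the Cdx2+/- cecum, and Dnmt1, a methyltransferase that is high in dividing cells, by 0.78 ± 0.22 in the Cdx2-/-;Apc+/- cecum. Proliferation markers moved in the same comparisons: 7 of 18 rose and 1 fell in the Cdx2-/-;Apc+/- cecum, 18 rose in the Cdx2-/- cecum and 13 in the Cdx2+/- cecum. Their summed levels were 744 to 886, 978 to 1372 and 857 to 967 CPM, against 361 to 729 CPM in WT cecum, and their part in these changes was not tested.

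The neighbourhood of H19 was examined because H19 and Igf2 share enhancers. Within 300 kb of the H19 start the files count 24 genes, of which 10 besides H19 and Igf2 were tested. Of these, 4 rose and 0 fell in the Cdx2-/-;Apc+/- cecum, 5 rose and 1 fell in the Cdx2-/- cecum, 3 rose and 1 fell in the Cdx2+/- cecum, and 6 rose and 0 fell in WT stomach, each against WT cecum. The shares of all genes called were 52.8, 53.1, 34.4 and 43.7%, and nothing particular to the neighbourhood is read from the counts. The median log2 changes were 0.93, 0.64, 0.44 and 1.04.

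The largest changes among the 10 were those of Tnni2, a fast skeletal muscle troponin gene that starts 136.3 kb downstream of the H19 start, and its neighbour Syt8, a synaptotagmin gene at 143.3 kb. Syt8 had 122, 123 and 109 CPM in the Cdx2-/-;Apc+/- cecum, 105 to 207 CPM in the Cdx2-/- cecum, 168 to 221 CPM in the Cdx2+/- cecum and 237 to 362 CPM in WT stomach, against 1.99, 2.64 and 0.49 CPM in WT cecum. Its log2 changes were 6.13 ± 0.62, 6.57 ± 0.61, 6.82 ± 0.64 and 7.41 ± 0.65, with adjusted p from 4.58e-08 to 3.26e-07 (edgeR). Tnni2 rose by 5.06 ± 0.53, 5.43 ± 0.52, 6.33 ± 0.56 and 6.48 ± 0.56. Between the Cdx2-/- and Cdx2+/- cecum, Syt8 differed by -0.25 ± 0.42 (adjusted p = 0.657, edgeR) and Tnni2 by -0.90 ± 0.36 (adjusted p = 0.0528, edgeR), and neither was called. Skeletal muscle markers, a list that holds Tnni2 and the smooth muscle marker Des, summed to 195 to 403 CPM in WT cecum. The sum was 175 to 253 CPM in the Cdx2-/-;Apc+/- cecum, 155 to 451 CPM in the Cdx2-/- cecum and 331 to 744 CPM in WT stomach. In the Cdx2+/- cecum it was 69.8 to 118 CPM, where Tnni2 alone had 44.0 to 63.5 CPM. The part of muscle in the Tnni2 change was not tested. Mrpl23, the nearest tested gene downstream of H19, rose by 0.67 ± 0.14 in the Cdx2-/- cecum, while Igf2os, on the strand opposite to Igf2, had 0.53 ± 0.61 (adjusted p = 0.482, edgeR).

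**Figure D4:**
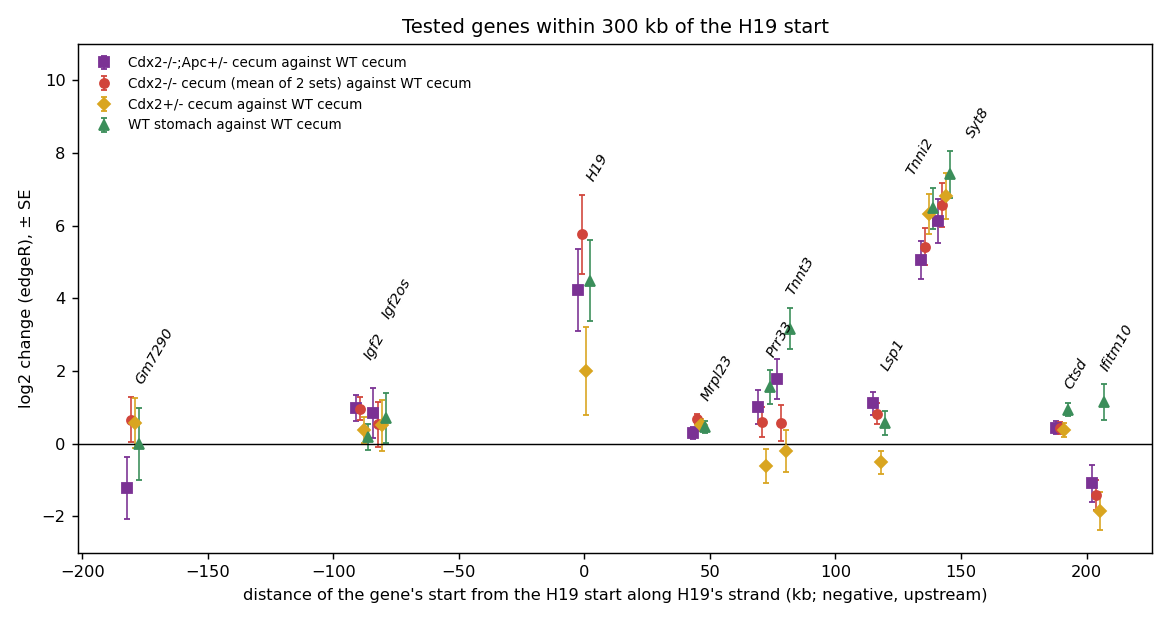
Log2 change with its SE, against WT cecum, of each tested gene within 300 kb of the H19 start, by distance along the H19 strand in kb. Tnni2 and Syt8 lie at 136.3 and 143.3 kb with changes of at least 5.06 in all 4 comparisons, and the Igf2 values at -88.7 kb lie within 1 of 0.

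Genes whose pattern was among the 5 most like that of H19 over the 24 libraries were Bmp7 (Pearson r = 0.89 of log2 CPM), Cyp1b1 (0.88), Creb3l2 (0.88) and Slc41a1 (0.87), among 13485 genes ranked. Among the 5 most like Igf2 were Zmat3 (0.75), Pamr1 (0.73), Rgs4 (0.73) and Gaa (0.72). These values are descriptions over libraries that share groups and normalisation. Bmp7, a secreted growth factor, had 32.6 ± 5.18 CPM in the Cdx2-/-;Apc+/- cecum, 30.7 ± 4.71 CPM in the Cdx2-/- cecum (n = 6), 16.8 ± 2.05 CPM in the Cdx2+/- cecum and 7.28 ± 1.70 CPM in WT cecum, and 59.2 ± 11 and 61.4 ± 14.2 CPM in the Cdx2-/-;Apc+/- and Apc+/- ileum (SD, n = 3 each otherwise). H19 and Igf2 correlated with each other at 0.56 over the same libraries, and H19 with Igf2bp2 at -0.79.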

How the data were processed

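The files the authors deposited, 1 for each library, give unnormalised counts of reads for Ensembl genes. The labels' protocols name Trizol extraction of total RNA and the TruSeq mRNA version 2 kit. CASAVA, TopHat2 2.0.11, HTSeq 0.5.3p3 and GRCm38 are named per the submitters' processing notes. How HTSeq treated strand, and with which annotation, is not given in the sources used here. The 5 entries that name no gene held 6.62 to 10.4% of reads in no gene, 2.00 to 3.44% in more than 1 gene and 17.3 to 30.0% of alignments that were not unique, each as a share of all entries of a file, and were left out. Symbols and coordinates came from the GENCODE annotation of GRCm38, with 37607 genes matched.

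All 24 libraries in 8 groups were fitted together with edgeR 4.0.16 (R 4.3.3): TMM scaling, filterByExpr, quasi-likelihood F test, Benjamini-Hochberg adjustment over 20502 genes, threshold 0.05. The 2 Cdx2-/- sets were averaged, so SEs hold the spread within sets and not the difference between them. Each SE is the size of the log2 change divided by the square root of the test's F value. It rests on a spread estimated over all 8 groups. Levels are TMM-scaled CPM, and the likeness of patterns used log2 CPM with a prior count of 2. How many of all genes had groups without overlap was not counted, so separation of libraries is a description. DESeq2 1.42.0 and other alternatives stand in the closing part. Same-numbered libraries of different groups did not deviate together in all pairs of any comparison, so replicate numbers were not used as pairs.

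Named genes are the 9, Cdx2, the 5 genes most like H19 and Igf2 (at least 1 CPM on average, no predicted or sex-linked genes), and up to 4 genes of each list with the smallest adjusted p. Xist, Ddx3y and Igf2os were added. Of the genes most like H19 and Igf2, 1 each is not reported here. The members, the lists and the window around H19 were chosen with earlier results of these data known.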

Additional observations from a re-analysis of the deposited data

Results flagged for a closer look

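Among the 6 Cdx2-/- cecum libraries, set 1 replicate 1 lay far from the rest for 2 genes. It had 2.84 CPM of Igf2bp1, where the other 5 had at most 0.645 CPM, and 5.51 CPM of Cdkn1c, where they had at most 2.47 CPM. Chance flags about 1 in 20 groups by this measure. Cecum and colon markers summed to 3954 CPM in that library and to 804 and 814 CPM in the other 2 of set 1, and the part of this in the values was not tested.

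The change in the Cdx2-/-;Apc+/- cecum against WT cecum differed from that in the Cdx2-/-;Apc+/- ileum against Apc+/- ileum for 6 genes. The log2 differences were 3.98 for H19, -5.35 for Igf2bp1, -3.09 for Igf2bp2, 2.92 for Peg3, 2.51 for Plagl1 and 1.32 for Grb10. The cecal contrast chose the genes and the controls differ in Apc genotype, so these are descriptions. Without Apc+/- ileum replicate 2 the differences of H19 (1.92), Peg3 (0.44) and Grb10 (0.80) were no longer called by edgeR. The calls of these 3 genes did not hang on that library alone. They were also lost without other single libraries, among them Cdx2-/-;Apc+/- cecum replicate 1 and WT cecum replicate 2. With the compared groups fitted alone they were lost as well.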

How the results depend on the processing

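No value called in both fits changed sign under any alternative run. In comparisons other than those of mutant with WT cecum, 36 member values called in neither fit did. Such changes were not counted for mutant against WT cecum, where Igf2bp3 in the Cdx2-/- cecum ran from -0.19 to 0.43 with 1 library left out. Over the 9 genes, H19 included, in comparisons other than those of mutant with WT cecum, 409 values kept their side of the threshold under other settings, 15 gained a call and 17 lost one; with 1 library left out these were 445, 9 and 32. Counts of called genes moved by over 1.5 times as follows. Between the Cdx2-/- and Cdx2+/- cecum, set 1 alone gave 5340 genes, against 8253. Between set 2 and set 1 (2148), adding up set 1 replicates 2 and 3 gave 970, and leaving out 1 library gave 665 to 2091. Between the Cdx2-/-;Apc+/- and Cdx2-/- cecum (1729), set 1 alone gave 4465, set 2 alone 2, the added-up library 1010, the compared groups fitted alone 1053, and leaving out 1 library 280 (without Cdx2-/-;Apc+/- replicate 2) to 1862. Between the Cdx2-/-;Apc+/- cecum and ileum (3321), the compared groups alone gave 0 and leaving out 1 library 1620 to 3405. In the ileum (91), DESeq2 gave 416, the compared groups alone 1, leaving out 1 library 3 (without Apc+/- replicate 1) to 583 (without Cdx2-/-;Apc+/- replicate 2), and leaving out both libraries numbered 2 gave 724. The cause was not tested, apart from the smaller number of libraries where some are left out. The labels do not say whether replicate numbers pair the samples, and the check on 3 libraries per group cannot exclude it. With the replicate block, 88 of the members' values kept their side of the threshold and 2 lost a call. These were the cecum-minus-ileum differences of Peg3 (2.69) and Grb10 (1.32), which contain a contrast that chose the genes and are descriptions. Depth limits H19 in WT cecum, with 1 to 4 reads per library.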
